A study of Mus musculus with 8 samples.

Results

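Germinal centre B cells with a short heavy-chain CDR3 were taken from paired B-cell receptor tables of mouse spleen. A cell was kept when its barcode held exactly 1 heavy-chain and 1 light-chain contig, and it was called short when its heavy CDR3 had 10 or fewer amino acids, the conserved first and last residues counted. The rule found 2996 short cells among 40603 paired cells, which is 7.38%. All 2996 short CDR3s began with cysteine and 2951 ended in tryptophan. Another 229 barcodes with a short heavy chain were left out because they had over 1 heavy contig, 263 because they had over 1 light contig and 123 because they had none.

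The study compared mice that lack Deltex-1, an E3 ubiquitin ligase known as a modulator of Notch signalling (genotype Dtx1-/-, here KO), with wild-type mice (Dtx1+/+, here WT). Each genotype gave 4 libraries. Spleens were taken 10 days after immunization, germinal centre B cells were enriched with peanut agglutinin beads and sorted by flow cytometry, and receptor transcripts were amplified from single cells. The antigen, the number of mice, their age and strain, and the way the allele was deleted are not given in the labels. The tables hold only receptor transcripts, so the loss of Dtx1 itself could not be checked, and neither could germinal centre markers.

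The CDR3 is the loop where the V, D and J segments of the heavy chain join, and it usually lies at the centre of the binding site. Its length is set by which segments are joined, how far their ends are trimmed and how many bases terminal transferase adds without a template. Short junctions leave little room for a D segment, and few added bases mean that different cells can arrive at the same sequence. Germinal centre B cells then mutate their V genes, and many switch from IgM to IgG.

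The libraries of each genotype behaved as loadings of a single pool of cells. Of the clones with 4 or more short cells, 79 of 80 in KO and 67 of 67 in WT had cells in 2 or more libraries, while no barcode with its heavy clonotype appeared in over 1 library. A chi-square test of IGHV gene use by short cells between libraries, with some small expected counts, gave p = 0.217 in KO and p = 0.744 in WT. The p-values below therefore measure the spread between loadings and may not cover the spread between mice. Deposited UMIs per library lay between 883091 and 1155339 in KO and between 754954 and 765119 in WT. Of 2993 short barcodes, 3 occurred in over 1 library.

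Some short heavy chains recurred in both genotypes, and their junctions show how little they contain. The sequences below are the CDR3 bases of the 5 heavy clonotypes (same IGHV gene, IGHJ gene and CDR3 residues) with the most cells in both genotypes, each given as its most common form in KO and then in WT. Lower case marks bases that match the consensus V end or J start of that gene in these files, and capitals mark the bases in between, which come from a D segment, from added bases or from mutation. All lie in the heavy-chain locus on chromosome 12.
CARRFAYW in KO, IGHV1-9 and IGHJ3: tgtgcaagaAggtttgcttactgg
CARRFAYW in WT, IGHV1-9 and IGHJ3: tgtgcaagaCggtttgcttactgg
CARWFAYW in KO and WT, IGHV1-9 and IGHJ3: tgtgcaagatggtttgcttactgg
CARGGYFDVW in KO and WT, IGHV1-76 and IGHJ1: tgtgcaagaGGGGggtacttcgatgtctgg
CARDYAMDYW in KO, IGHV2-2 and IGHJ4: tgtgccagaGActatgctatggactactgg
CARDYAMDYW in WT, IGHV2-2 and IGHJ4: tgtgcACGAGActatgctatggactactgg
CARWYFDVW in KO and WT, IGHV1-54 and IGHJ1: tgtgcaagatggtacttcgatgtctgg

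The first clonotype, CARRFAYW, was in 17 KO and 8 WT cells, and its 2 main forms differed at 1 base. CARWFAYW was in 17 KO and 7 WT cells and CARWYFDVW in 4 KO and 25 WT cells, and neither had a base outside the V and J matches. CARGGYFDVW was in 7 KO and 7 WT cells and had 4 such bases. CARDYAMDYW was in 5 KO and 7 WT cells, and its main forms differed at 2 bases. The light chain recurred with the heavy chain. IGKV14-111 was carried by 16 of the 17 KO and all 8 WT cells of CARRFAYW, IGKV1-135 by all 24 cells of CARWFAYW, IGKV14-111 by all 14 cells of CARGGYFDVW, IGKV6-32 by all 12 cells of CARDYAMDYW and IGKV1-133 by all 29 cells of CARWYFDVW.

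Short cells made up 7.43%, 7.14%, 7.31% and 7.49% of the paired cells in the KO libraries, against 7.99%, 7.99%, 6.56% and 7.13% in the WT libraries. The genotypes overlapped, with means of 7.34% ± 0.155 in KO and 7.42% ± 0.702 in WT (SD, n = 4 each; exact permutation test over libraries, two-sided, p = 0.943). Most short cells had 8 to 10 residues. In KO there were 750 cells of 10 residues, 526 of 9, 263 of 8, 63 of 7 and 5 of 6, and in WT there were 535 of 10, 602 of 9, 172 of 8, 75 of 7, 2 of 6 and 3 of 5. Just outside the limit, 1385 KO and 1030 WT cells had 11 residues. Over both genotypes, cells of 10 residues were 7.47% lambda, 55.0% IGHJ2 and 0.401% mutated in IGHV, and cells of 11 residues were 2.61%, 42.0% and 0.264%. Lambda did not go on falling with length, at 6.12% of cells with 12 residues and 6.75% of those with 13.

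**Figure D1:**
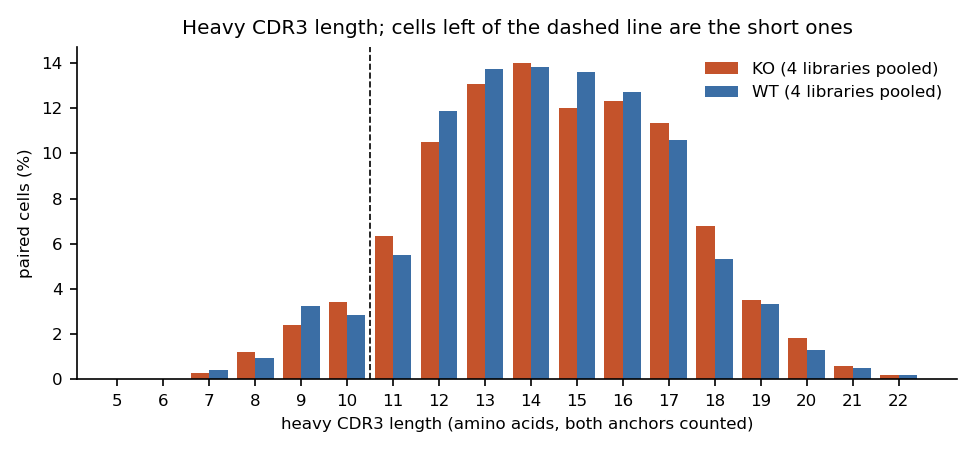
Share of paired cells (percent, y axis) by heavy CDR3 length in amino acids (x axis), as bars for KO and WT with the 4 libraries of a genotype pooled. The 2996 short cells lie left of the dashed line, on the lower slope of the distribution, with more WT cells than KO cells at 9 residues and more KO cells than WT cells at 8 and 10.

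The missing tryptophan in 45 short CDR3s came almost entirely from 2 WT groups. In 23 WT cells the CDR3 was CARWYDYLQL with IGHV1-4 and IGHJ2, 22 of them with IGKV14-111. In 16 WT cells it was CARGLIL with IGHV1-39 and IGHJ2, all with IGKV6-23. Both groups were unmutated and present in all 4 WT libraries. KO had 2 of the 45 cells.

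The junctions themselves are part of what the length rule selects, so they are described without a test. In short cells of KO the V-matched end had a mean of 8.04 bases, the J-matched end 10.8 and the stretch between them 8.86, and in WT these were 8.02, 10.7 and 8.75. In other cells the stretch between averaged 19.96 bases in KO and 20.3 in WT. It was 3 bases or fewer in 9.51% of KO and 8.02% of WT short cells, against 0.161% and 0.367% of other cells. In 21 KO and 32 WT short cells V and J met with no base between, and no other cell had such a join. The V-matched end averaged 9.15 bases in KO and 9.08 in WT other cells and the J-matched end 15.5 and 14.8, so the largest gap lay in the stretch between.

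A D gene was called in 4.67% of KO and 3.02% of WT short cells, against 24.9% and 23.7% of other cells. Even where 9 or more bases lay between the V and J ends, the caller named a D gene in 5.52% of KO and 4.37% of WT short cells. Most of the D genes named in short cells were IGHD4-1, IGHD5-5 or IGHD5-6. IGHD4-1, the shortest functional mouse D segment, took 41 of the KO and 30 of the WT calls, which together were 60.7% of calls in short cells and 8.88% of calls in other cells. IGHD5-5 had 21 calls in short cells, IGHD5-6 had 8 and IGHD3-2 had 7, while IGHD2-3 had 5, IGHD2-7 had 4 and IGHD2-8 had 1. IGHD1-1, the longest of the common segments, was called in 3385 other cells and in no short cell, which allows up to 3 cells.

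Short cells used IGHJ2 far more than other cells of the same library, and IGHJ1 and IGHJ4 far less. IGHJ2 was carried by 48.1%, 51.7%, 52.8% and 52.1% of short cells in KO and by 53.5%, 53.8%, 51.8% and 51.1% in WT, while other cells lay between 27.9% and 28.9% in every library. The mean was 51.9% in short and 28.5% in other cells, a difference of 23.3 ± 1.84 percentage points (SD over 8 libraries), with short cells higher in 8 of 8 libraries. IGHJ4 averaged 11.1% in short and 27.3% in other cells and IGHJ1 6.58% against 18.1%, both lower in 8 of 8 libraries. IGHJ3 averaged 30.4% against 26.1% and was higher in 7 of 8 libraries. These J genes do not bring the same length to the junction. The consensus J start within the CDR3 has 20 bases in IGHJ1, 19 in IGHJ4 and 16 in IGHJ2 and IGHJ3, and the length rule counts these bases, so the J gene shares are given without a test. The IGHJ2 ends were shorter in short cells, with a median of 10 bases against 14.

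**Figure D2:**
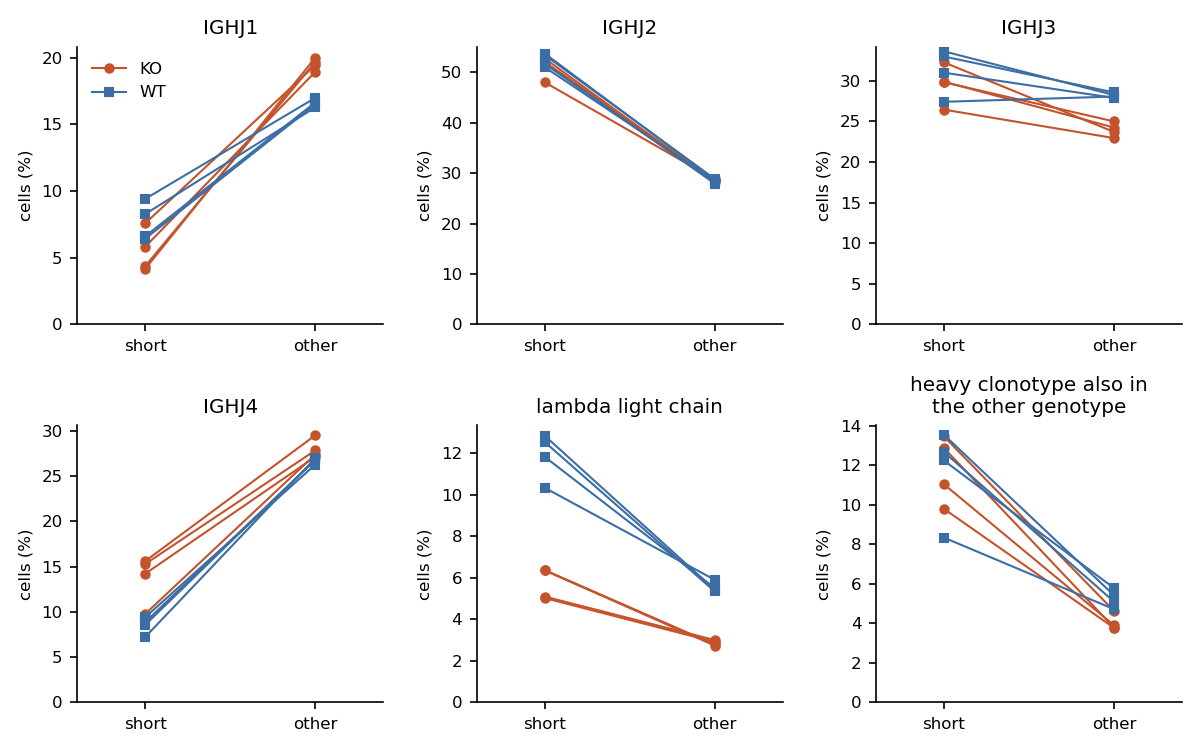
Share of cells (percent, y axis) among short cells (left) and other cells (right) of the same library, joined by a line, for 4 KO and 4 WT libraries. IGHJ2, lambda and clonotypes found in the other genotype are higher in short cells of all 8 libraries, IGHJ1 and IGHJ4 are lower in all 8, and IGHJ3 is higher in 7.

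Lambda light chains were more frequent with short heavy CDR3s. Lambda was carried by 5.10%, 6.37%, 6.36% and 5.03% of short cells in KO and by 10.3%, 11.8%, 12.5% and 12.8% in WT, while other cells ranged from 2.74% to 3.00% in KO and from 5.35% to 5.90% in WT. The mean was 8.80% in short and 4.203% in other cells, a difference of 4.60 ± 2.14 points with short cells higher in 8 of 8 libraries (exact sign-flip permutation test, two-sided, p = 0.00781, adjusted p = 0.0223 by Benjamini-Hochberg over 20 values). With each clone counted once the means were 9.57% and 4.55%. Light CDR3s of 11 residues, the usual length, were carried by 94.7% of short and 91.4% of other cells, again higher in 8 of 8 libraries (exact test, adjusted p = 0.0223), and the mean light CDR3 length was 10.98 residues in short and 10.995 in other cells (exact p = 0.422).

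IGKV14-111 showed a pattern that skipped a length. It was carried by 17.9% of the cells with 8 residues, 2.93% of those with 9 and 21.6% of those with 10, and by 4.27% of those with 11. By library it ranged from 12.5% to 21.6% at 8 residues, from 0.769% to 5.84% at 9 and from 13.2% to 29.3% at 10, so the ranges at 8 and 10 residues did not overlap that at 9. Counted by clones rather than cells the shares were 15.8% at 8 residues, 6.84% at 9, 17.4% at 10 and 5.22% at 11. Lambda and IGKV9-124 were instead most frequent at 9 residues among the short lengths. Lambda was 10.99% there, and IGKV9-124 was 8.95% against 2.99% at 8 and 3.74% at 10. IGKV1-135 was 13.8% at 8 residues, 8.87% at 9, 6.54% at 10 and 1.49% at 11. These shares by length are a description of lengths inside and outside the limit, without a test.

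**Figure D3:**
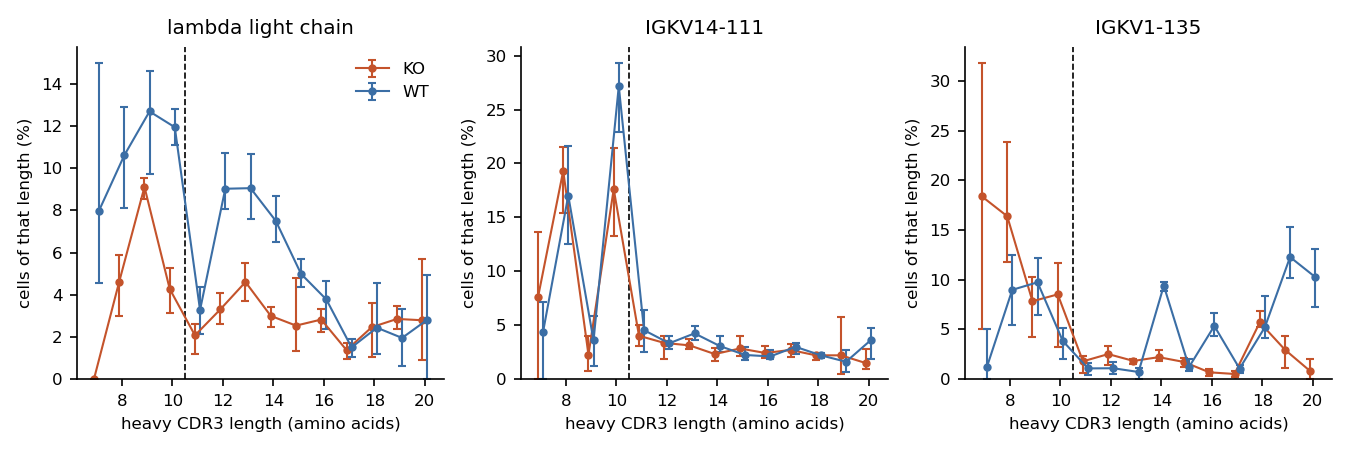
Share of cells of each heavy CDR3 length (percent, y axis) that carry a lambda chain, IGKV14-111 or IGKV1-135, by length in amino acids (x axis), as means of 4 KO and 4 WT libraries with bars from the lowest to the highest library. IGKV14-111 has its peaks at 8 and 10 residues in both genotypes and drops at 9.

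Light V gene use differed between short and other cells over most of the repertoire. In the edgeR fit with library as a block, 52 of 68 tested light V genes passed an adjusted p of 0.05, which is 76.5%. Of these 18 were higher and 34 lower in short cells, and DESeq2, whose scaling moved the median of all light V genes from a log2 fold change of -1.08 to -1.83, called 13 higher and 45 lower. A gene that passed the filter on low counts through short cells alone, or through other cells alone, had to differ. These counts are therefore a description. IGKV14-111 (chr6:68256404-68256869, RefSeq genes on GRCm38.p6, the assembly of the build mm10) was the light V gene with the most short cells, 397 in 183 clones. It was carried by 12.4%, 12.5%, 10.51% and 14.6% of short cells in KO and by 15.2%, 11.8%, 15.5% and 14.4% in WT, against 2.36% to 3.17% of other cells. Its log2 fold change was 2.21 ± 0.16 (SE; edgeR adjusted p = 6.38e-11), and no library overlapped.

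Of the other light V genes most used by short cells, IGKV1-135 (261 cells) had a log2 fold change of 1.64 ± 0.25, IGLV1 (205 cells) of 1.26 ± 0.20 and IGKV9-124 (162 cells) of 2.33 ± 0.30. IGKV4-57 (118 cells) had 1.95 ± 0.29 and IGKV14-100 (149 cells) 2.97 ± 0.52, and all 5 passed the test in edgeR. Of the IGKV14-100 cells 104 were a single WT clone, its share was 0.819% of short and 0.483% of other cells in KO, and its fold change was 1.75 with each clone counted once. The largest rises were in rarer genes. IGKV1-133 (chr6:67724914-67725661) was carried by 55 short and 23 other cells, with a log2 fold change of 4.78 ± 0.46. Of the 55 short cells 25 were a single clone, and with each clone counted once the fold change was 3.57. IGKV4-69, with 19 short and 15 other cells, had 3.74 ± 0.73, and IGKV4-70, with 58 short and 88 other cells, had 2.82 ± 0.45. IGKV1-133, IGKV4-69 and IGKV4-70 passed the filter through short cells alone, so their fold changes are given without a test. Others were nearly missing. IGKV4-74 was in none of the short cells and in 301 other cells, which makes it at least 7.99-fold lower against a floor of 3 cells over all short cells. IGKV8-34 was in none and in 167 other cells, at least 4.43-fold lower. IGKV3-12 was in 3 short and 779 other cells, a ratio of other to short share of 20.7 (95% exact interval 7.05 to 101), and IGKV3-5 was in 1 short and 343 other cells, a ratio of 27.3 (4.87 to 1082). Intervals and floors here cover counting error only.

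IGHV genes split in the same manner. Of 63 IGHV genes tested, 35 (55.6%) passed in edgeR, 14 higher and 21 lower in short cells, and DESeq2, which moved the median from -0.60 to -1.36, called 10 higher and 40 lower. The same limit of the filter holds here, so these counts are a description as well. IGHV10-1 (chr12:114479007-114479451) averaged 4.59% of short and 0.326% of other cells, with a log2 fold change of 3.77 ± 0.27, and 64 of its 141 short cells were a single KO clone. No p is given, because IGHV10-1 passed the filter through short cells, with other cells below the filter's level in most libraries. Its fold change was 2.53 with each clone counted once. IGHV14-3 (2.62 ± 0.30), IGHV6-3 (2.54 ± 0.28), IGHV1-74 (2.52 ± 0.30) and IGHV5-9 (2.34 ± 0.47) followed, and each was higher in short cells of 8 of 8 libraries and passed the test.

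At the other end, IGHV12-3 (chr12:114366526-114366819), a gene known from B-1 cells that bind phosphatidylcholine, was in none of the short cells and in 363 other cells, at least 9.64-fold lower. IGHV1-63 was in none and in 179 other cells, at least 4.75-fold lower. IGHV8-12 was in 2 short and 1210 other cells, a ratio of other to short share of 48.2 (95% exact interval 13.3 to 398), IGHV1-62-2 in 2 and 1137, a ratio of 45.3 (12.5 to 374), and IGHV1-71 in 1 and 952, a ratio of 75.8 (13.6 to 2999). V segments were named by the authors' pipeline, and IGHV genes of the large IGHV1 family are near-identical in places, so a gene name can carry some reads of its relatives.

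By IGHV family, the IGHV1 family, the largest in the mouse, held 1882 short cells. Its mean share was 62.4% of short and 65.3% of other cells. IGHV10 averaged 4.89% of short and 0.749% of other cells, IGHV6 4.52% and 1.13%, and IGHV14 6.02% and 3.21%, while IGHV8 averaged 4.12% and 8.72%. By genotype, IGHV8 averaged 0.564% of KO and 7.68% of WT short cells.

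The IGHV genes most used by short cells were IGHV1-9 with 208 cells in 83 clones, IGHV1-53 with 199 in 57, IGHV1-55 with 179 in 77, IGHV10-1 with 141 in 35, IGHV1-81 with 139 in 103, IGHV9-3 with 131 in 61, and IGHV1-76 and IGHV1-74 with 123 each. IGHV1-9, IGHV1-55, IGHV9-3 and IGHV1-81 did not pass the test between short and other cells (edgeR adjusted p between 0.133 and 0.553). IGHV1-55 (0.53, edgeR adjusted p = 0.00470) and IGHV1-9 (0.40, edgeR adjusted p = 0.0174) did pass with each clone counted once. For IGHV1-53 the log2 fold change was 1.10 ± 0.26 and for IGHV1-76 2.13 ± 0.34, and both passed. IGHV1-53 did not pass in DESeq2 (log2 fold change 0.33, adjusted p = 0.195), and with a limit of 9 residues IGHV1-76 was lower in short cells, at -1.29 on the log2 scale.

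Several of these common IGHV genes carried other light chains when their CDR3 was short. The pairs that follow were picked after the values were seen, as those with at least 4 clones in each genotype, and are given without a test. IGHV1-9 cells with a short CDR3 carried IGKV14-111 in 48.1% of cells, against 4.18% of other IGHV1-9 cells, and this pair came from 24 KO and 15 WT clones. Short IGHV1-53 cells carried IGKV9-124 in 51.8%, against 10.99% of other IGHV1-53 cells, from 10 KO and 9 WT clones. Short IGHV1-74 cells carried IGKV1-135 in 69.1% against 2.25%, from 9 KO and 8 WT clones. Short IGHV1-76 cells carried IGKV14-111 in 64.2% against 2.22%, from 10 KO and 8 WT clones. IGHV5-9 with IGKV9-120 occurred in 43 short cells and in none of the 192 other IGHV5-9 cells.

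Several pairs were mostly of 1 length. Of the 79 cells of IGHV1-76 with IGKV14-111, 98.7% had 10 residues, and 68.4% used IGHJ2. IGHV1-53 with IGKV9-124 had 9 residues in 87.4% of 103 cells, and IGHV5-9 with IGKV9-120 had 9 residues in 100% of its 43. IGHV1-74 with IGKV1-135 was spread over 9 residues (69.4% of 85 cells) and 10 residues (30.6%). IGHV1-9 cells also took several lengths. With IGKV1-135, 91.9% of its 37 cells had 8 residues, and with IGKV14-111, 37.0% of its 100 cells had 8, 6.00% had 9 and 57.0% had 10. Within a pair the CDR3s varied, with 41 different ones for IGHV1-9 with IGKV14-111 and 33 for IGHV1-53 with IGKV9-124.

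Short heavy clonotypes were shared between the genotypes more often than others. The share of cells whose heavy clonotype was also seen in the other genotype was 12.9%, 11.03%, 13.4% and 9.79% among short cells in KO and 12.7%, 8.33%, 13.5% and 12.2% in WT, against 3.77% to 4.63% and 4.71% to 5.78% of other cells. The mean difference was 7.10 ± 1.77 points, with short cells higher in 8 of 8 libraries (exact sign-flip test, p = 0.00781, adjusted p = 0.0223). The KO values counted the 65 KO cells of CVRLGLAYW (IGHV10-1 and IGHJ3) as shared through 1 WT cell. With each clone counted once the means of short and other cells were 7.38% and 2.33%. Counted by cells, the means were 11.7% and 4.64%, and 4.92% and 1.07% when the same CDR3 bases were asked for. When the same residues with the same light V gene and light CDR3 were asked for, they were 6.78% and 3.08%.

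In clonotypes rather than cells, 36 of 1433 short ones (2.51%) and 151 of 18306 others (0.825%) occurred in both genotypes. The 36 were 4.37% of the short clonotypes of KO and 5.57% of those of WT. The share by length was 0 of 78 at 7 residues, 1.95% at 8, 3.64% at 9, 2.28% at 10 and 1.51% at 11. The same light V gene was found in both genotypes for 33 of the 36, and for 138 of the 151. Over 1 cell in each genotype was seen for 15 of the 36 and for 52 of the 151. In 22 of the 36 the genotypes had no CDR3 base sequence in common. The 36 had a median of 6 bases between the V and J ends, against 9 in short clonotypes found in a single genotype.

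Short cells fell into 803 KO clones and 584 WT clones, where a clone shares the V and J genes of both chains and a CDR3 of the same length with at least 0.85 identity in bases. A lone cell was all there was to 594 KO clones and 433 WT clones. The rule tolerates some differing bases, so cells of separate origin with the same genes and similar short CDR3s could be joined. Were identical CDR3 bases asked for, the clones would number 910 in KO and 749 in WT. Among the short cells, 16.1% of those in KO belonged to the 10 largest KO clones, against 24.5% for the 10 largest in WT. The sequences below are the CDR3s of the 3 largest short clones of each genotype, shown because they weigh on the V gene counts, with the same marking.
KO clone 1, IGHV10-1 with IGKV8-19: tgtgtgagacTGGGTCttgcttactgg
KO clone 2, IGHV1-53 with IGKV2-137: tgtgcaagaAATACTAGAtttgactactgg
KO clone 3, IGHV14-3 with IGKV5-48: tgtgctagGGGGCCTCCTtttgactactgg
WT clone 1, IGHV8-8 with IGKV14-100: tgtgctcgaCACCCctttgactactgg
WT clone 2, IGHV5-9 with IGLV1: tgtgcaagacaGCGCTGGgactactgg
WT clone 3, IGHV10-1 with IGKV4-63: tgtgtgagCGGTAGctttgactactgg

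KO clone 1 had 64 cells, with 17, 14, 18 and 15 in the 4 libraries, and every cell was unmutated IgM. KO clones 2 to 5 had 36, 25, 23 and 22 cells and were likewise all unmutated IgM. WT clone 1 had 104 cells, with 27, 34, 19 and 24 by library, also all unmutated IgM and all with the same CDR3 bases. The WT clones were not all of that kind. WT clone 2 had 33 cells, 72.7% of them unmutated, and WT clone 3 had 29 unmutated cells. WT clone 4, IGHV1-53 with IGKV9-124, had 28 cells with 17 different CDR3 base sequences, none unmutated and a mean of 1.28% mutated IGHV bases. WT clone 5, IGHV1-55 with IGLV1, had 27 cells and 17 CDR3 sequences, with 0.793% mutated bases.

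Cells in expanded clones, those with at least 1 clone mate in their library, were 41.3%, 45.3%, 47.2% and 45.2% of short cells in KO, against 55.6%, 51.1%, 56.8% and 54.4% in WT. Every KO library lay below every WT library, with means of 44.8% ± 2.497 and 54.5% ± 2.45 (SD, n = 4 each; exact permutation test, p = 0.0286, the smallest that 70 assignments allow, adjusted p = 0.0510 over 25 values). With each clone counted once the means were 19.7% and 22.9% (exact p = 0.114). The order was the same among other cells, with means of 47.5% in KO and 55.5% in WT. Against other cells of the same library, short cells were in expanded clones less often in 8 of 8 libraries, by 1.91 ± 1.81 points (exact sign-flip test, adjusted p = 0.0223). That difference missed the threshold when any number of light chains was allowed, when 5 or more heavy UMIs were asked for and when each clone was counted once, and changed sign with a limit of 9 or of 11 residues.

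Most short cells of both genotypes were unmutated IgM cells. Mutation was counted as bases of framework 1 to framework 3 that differ from the commonest sequence of that IGHV gene in these files. The mean was 0.265%, 0.269%, 0.209% and 0.243% in KO, against 0.482%, 0.478%, 0.589% and 0.596% in WT. Means of the libraries were 0.247% ± 0.0276 in KO and 0.536% ± 0.0650 in WT (SD, n = 4 each; exact permutation p = 0.0286, adjusted p = 0.0510). Unmutated cells were 77.8% ± 2.56 of KO and 60.9% ± 3.08 of WT short cells, and mutated cells carried 3.18 ± 0.237 and 3.90 ± 0.254 mutations, with no overlap between genotypes in either (the same exact p and adjusted p). IgM cells alone gave 0.190% in KO and 0.454% in WT.

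In all, 14 of the 25 values compared between KO and WT short cells reached the smallest exact p of 0.0286, and after adjustment over the 25 each stood at 0.0510, so none passed 0.05. The family had been widened after the files were seen. Other cells stood in the same order for mutation, with means of 0.221% in KO and 0.424% in WT. None of 20 tests of whether the difference between short and other cells itself differed by genotype passed adjustment, the smallest exact p being 0.0286 and the smallest adjusted p 0.114. The shares of IGHG1, IGHG3, lambda and IGHJ1 and the mean light CDR3 length stood at 0.0286, the smallest that 70 assignments allow. A value at that floor could pass adjustment only if many of the 20 reached it.

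Compared with other cells of the same library, short cells carried slightly more IGHV mutation, 0.391% against 0.322%, with short cells higher in 7 of 8 libraries (exact sign-flip test, p = 0.0156, adjusted p = 0.0312). Mutations per mutated cell averaged 3.54 and 3.21 (higher in 7 of 8 libraries; exact test, adjusted p = 0.0312). The share of unmutated cells did not pass, at 69.4% against 72.0% (exact p = 0.0859). With a limit of 9 residues the difference in mutation was 0.0418 points (exact p = 0.469), with 11 it was 0.0110 (exact p = 0.430), and among cells with 20 to 40 heavy UMIs 0.0639 (exact p = 0.0938).

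**Figure D4:**
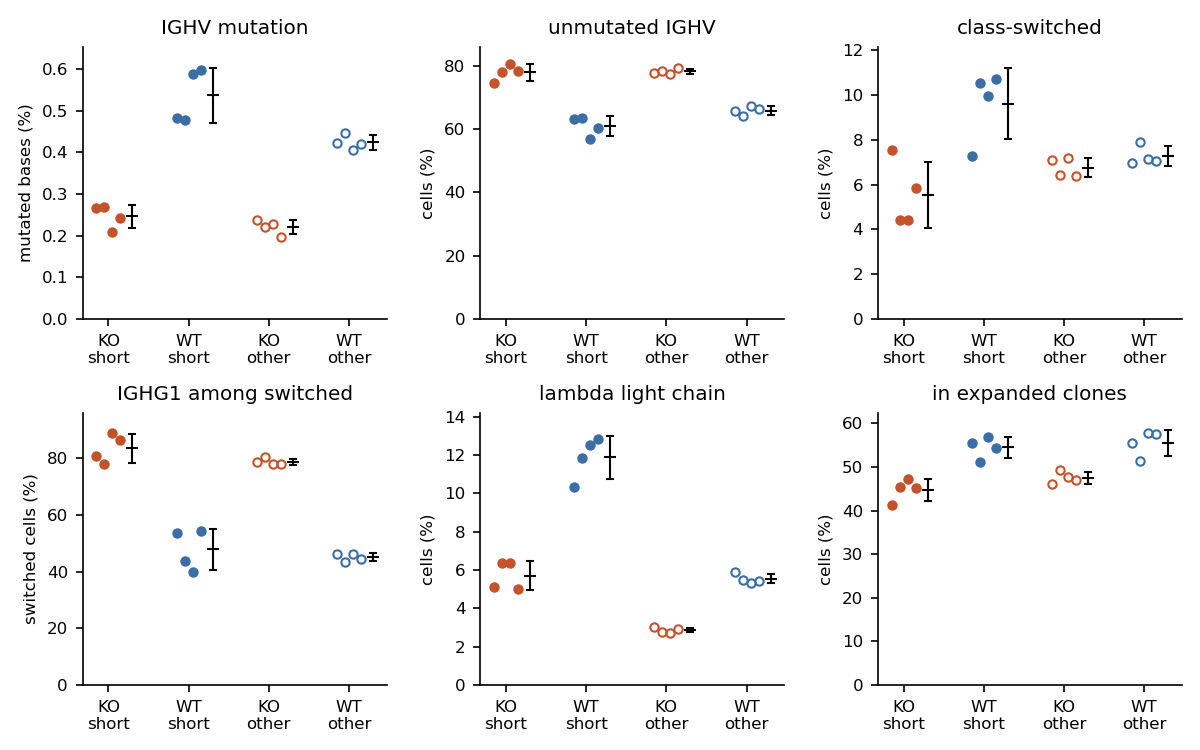
Values per library for KO and WT short cells (filled) and KO and WT other cells (open), with the mean and SD of 4 libraries beside each group: IGHV mutation (percent of bases), unmutated cells, class-switched cells, IGHG1 among switched cells, lambda and cells in expanded clones (percent of cells). In short cells the genotypes do not overlap except in the class-switched share, where the highest KO library, 7.52%, lies above the lowest WT library, 7.27%.

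Class-switched cells were 7.52%, 4.41%, 4.42% and 5.85% of KO short cells, against 7.27%, 10.54%, 9.93% and 10.7% of WT short cells. The highest KO library exceeded the lowest WT library, and the means were 5.55% ± 1.48 and 9.61% ± 1.59 (exact permutation p = 0.0571, adjusted p = 0.0893). IGHG1 was 80.6%, 77.8%, 88.9% and 86.4% of the switched short cells in KO, against 53.6%, 43.6%, 40% and 54.3% in WT, without overlap (exact p = 0.0286, adjusted p = 0.0510). Other cells stood in the same order, with means of 78.7% in KO and 44.98% in WT. IGHG3 was found in 1 KO short cell, in 1 library, and in 30 WT short cells of 17 clones, with 1.82%, 1.89%, 2.32% and 2.75% of short cells in the WT libraries. IGHG2B was in 13 KO cells of 11 clones and 35 WT cells of 19 clones, 0.810% ± 0.3001 against 2.57% ± 1.03 of short cells. Its exact p was 0.0571 with each clone counted once. IGHA was in no KO and 1 WT short cell, and IGHG2C in 1 and 3.

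Heavy-chain depth moved with these values. The median UMIs of the heavy contig in short cells were 38, 42.5, 39 and 39 in KO and 20, 22, 21 and 25 in WT. Among cells with 20 to 40 heavy UMIs, a range chosen after seeing the data, mutation was 0.235% in KO and 0.502% in WT (exact p = 0.0286), and mutations per mutated cell were 3.30 and 3.81 (exact p = 0.2). There IGHG1 was 70.7% of switched cells in KO and 53.3% in WT (exact p = 0.343), and IGHG3 was 0 and 1.26% of cells (exact p = 0.143). The part of depth in the class values was not tested further.

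Switched short cells were mutated in both genotypes, which gives a check on the mutation count. IGHG1 short cells averaged 1.22% mutated bases in KO and 1.22% in WT, IGHG2B cells 1.27% and 1.19%, and the 30 WT IGHG3 cells 1.79%, with none unmutated. Among clones of 3 or more short cells, 15 of 113 in KO and 22 of 97 in WT held both unswitched and switched cells.

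Unmutated IgM or IgD cells, which naive cells entering the sort would resemble, were the majority of short cells. IgD was the constant gene of 3 KO and 9 WT short cells. Unmutated IgM or IgD cells were 73.7% to 80.5% of KO and 55.0% to 63.1% of WT short cells, and 76.5% to 78.2% and 63.6% to 66.6% of other cells. The tables hold no transcript that would tell naive from early germinal centre cells, and the part of naive cells in the mutation and class values was not tested. IGHV11-2 and IGHV12-3, used by B-1 cells, were in 1 short cell. Among other cells their mean share was 1.53% in KO and 0.532% in WT. Whether the length limit itself leaves out such receptors was not tested, so their rarity here cannot show that B-1 cells were absent. Cells above the 99th percentile of heavy UMIs were 0.538% to 1.65% of short cells. That cut is set within each library, so a fixed share of all its cells lies above it. The cut therefore cannot show how many antibody-secreting cells the sort held.

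Lambda did not overlap between the genotypes in short cells, with 5.71% ± 0.753 in KO and 11.9% ± 1.12 in WT (exact p = 0.0286, adjusted p = 0.0510), and other cells stood in the same order, 2.86% in KO against 5.55% in WT. IGHJ4 was carried by 15.3%, 14.2%, 9.78% and 15.6% of KO and 7.24%, 9.41%, 8.58% and 8.87% of WT short cells (exact p = 0.0286, adjusted p = 0.0510), and with each clone counted once the means were 13.7% and 10.97% (exact p = 0.0857). IGHJ1, IGHJ2 and IGHJ3 overlapped between the genotypes. They did not with each clone counted once, at 5.88% against 8.22% for IGHJ1, 52.4% against 46.9% for IGHJ2, whose sign turned, and 28.0% against 33.9% for IGHJ3 (exact p = 0.0286 and adjusted p = 0.0549 each). Of 4 measures of CDR3 make-up between the anchors, charged residues were 25.3% ± 0.669 in KO and 23.7% ± 0.363 in WT and glycine 10.3% ± 0.301 and 9.42% ± 0.306 (exact p = 0.0286 each), while tyrosine and hydropathy overlapped (exact p = 0.171 and 0.0857). With each clone counted once, glycine was 10.3% and 10.48% and its order turned round. The genotypes also differed in their mix of short lengths, with 750 KO and 535 WT cells of 10 residues and 526 and 602 of 9. The part of length in these residue shares was not tested. The share of cells with a heavy clonotype in the other genotype was 11.8% in KO and 11.7% in WT (exact p = 0.943), where KO cells were matched against the 18707 paired WT cells and WT cells against 21896 KO cells.

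V gene use of short cells differed between the genotypes, for several genes through a single large clone. With 303 to 412 short cells per library, 15 of the 82 IGHV genes seen passed the filter on low counts, and 11 of the 15 (73.3%) were called by edgeR, 5 higher and 6 lower in KO. Of the 81 light V genes seen 14 passed the filter and 11 (78.6%) were called, 7 higher and 4 lower. A gene that passed the filter only through the genotype where it was frequent had to differ. This holds for 5 of the called IGHV genes (IGHV1-81, IGHV8-8, IGHV2-2, IGHV5-9 and IGHV1-85) and 6 of the light ones (IGKV14-100, IGKV8-19, IGKV12-46, IGKV10-96, IGKV2-109 and IGKV2-137), so the counts and the fold changes of these genes are given as a description, with no p. When each clone was counted once, 7 IGHV and 3 light V genes passed the filter, and 2 of each were called: IGHV1-81 and IGHV14-3, and IGLV1 and IGKV1-135. So counted, IGHV1-81 passed the filter through KO alone and IGHV14-3 through WT alone, and these IGHV calls are a description. Scaling by TMM in place of cell totals moved the median IGHV fold change from -0.14 to 0.04. The same edgeR comparison of KO with WT among other cells called 37 of 68 IGHV and 48 of 71 light V genes. Differences in V gene use between the genotypes were therefore not particular to short cells.

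IGHV8-8 (chr12:115294066-115294362) was carried by 0.728%, 0%, 0.733% and 0.529% of KO short cells against 6.98%, 9.14%, 6.60% and 7.34% of WT short cells, a log2 fold change of -3.84 ± 0.32. Of its 105 WT cells 104 were WT clone 1. IGKV14-100, the light chain of that clone, was in 136 WT cells and lower in KO, at 0.819% against 9.73% (-3.54 ± 0.26). IGKV8-19, the light chain of KO clone 1, was higher in KO at 4.81% against 0.645% (2.82 ± 0.34), and IGHV10-1, its heavy chain, at 6.04% against 3.15% (0.92 ± 0.17). IGHV5-9 was lower in KO at 0.926% against 5.64% (-2.51 ± 0.35), with 33 of its 76 WT cells in WT clone 2. IGHV2-2 was higher at 5.12% against 1.44% (1.802 ± 0.25), with 23 of its 82 KO cells in KO clone 4, and IGHV1-85 at 4.32% against 0.912% (2.16 ± 0.34). Among other cells, IGKV8-19 (1.89 ± 0.24) and IGHV1-85 (1.52 ± 0.18) were also called higher in KO, so these rises were not particular to short cells. IGHV8-8 had the opposite order there, higher in KO (0.85 ± 0.07). IGKV14-100, IGHV10-1, IGHV5-9 and IGHV2-2 were not called among other cells (edgeR adjusted p between 0.272 and 0.737).

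Further genes were called as well. IGHV14-3 (chr12:114059845-114060273) was carried by 2.91%, 2.70%, 2.44% and 2.38% of KO and 4.91%, 5.11%, 5.61% and 5.20% of WT short cells (-0.98 ± 0.16), from 12 KO and 32 WT clones. KO clone 3 held 25 of its 42 KO cells, and with each clone counted once the fold change was -1.85 ± 0.20. IGLV1 (chr16:19085017-19085460) was carried by 4.54% against 9.55% (-1.06 ± 0.16, edgeR adjusted p = 2.59e-05), from 34 KO and 61 WT clones. IGKV12-46 was carried by 3.74% against 0.282% (3.55 ± 0.44), from 21 KO and 4 WT clones, and IGKV10-96 by 3.54% against 0.802% (2.12 ± 0.35), from 21 and 8 clones, with 22 of its 57 KO cells in 1 clone. IGHV1-76 was carried by 2.79% against 5.61% (-0.995 ± 0.19), although KO had 27 clones and WT 18, and with each clone counted once it did not pass (-0.46, edgeR adjusted p = 0.181).

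**Figure D5:**
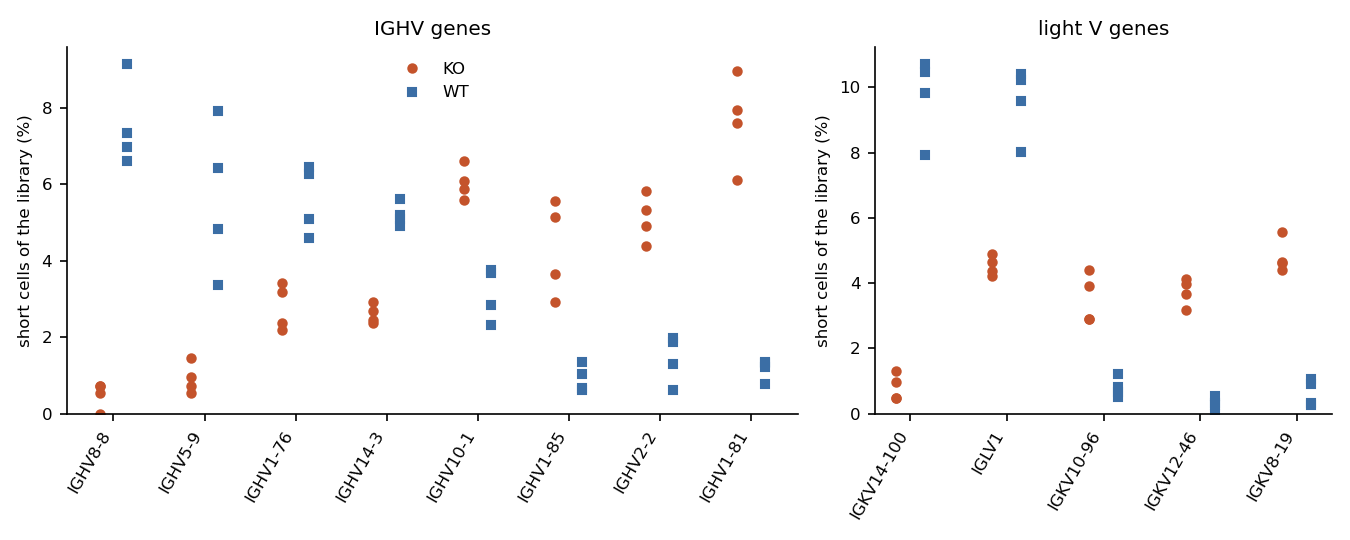
Share of the short cells of each library (percent, y axis) that use an IGHV gene or a light V gene, for the 8 IGHV and 5 light V genes called between genotypes with the smallest p, with 4 KO points left of 4 WT points for each gene. No gene shown has overlapping genotypes, whereas IGHV1-55, IGHV6-3 and IGKV1-135, called but not shown, overlap. In WT a single clone of 104 cells makes up most of the IGHV8-8 and IGKV14-100 cells.

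IGHV1-81 (chr12:115920279-115920572), singled out after its values were seen, was carried by 8.98%, 7.60%, 6.11% and 7.94% of KO short cells, against 0.775%, 1.34%, 1.32% and 1.22% of WT short cells. The log2 fold change was 2.70 ± 0.22, and with each clone counted once 2.34 ± 0.24, both given without a test because the gene passed the filter through KO alone. The 123 KO cells came from 89 clones, none over 8 cells, and the 16 WT cells from 14 clones. In other cells the order was opposite, with 5.31% in KO and 8.21% in WT. The test of that difference passed for 21 of 63 IGHV genes (33.3%) and 17 of 68 light V genes (25%). For IGHV1-81 the difference was 3.36 on the log2 scale. It is given without a p, because the gene was picked by the same short-cell values.

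By clones, IGHV1-81 made up 10.4% of KO clones with 8 residues, 11.6% with 9, 10.9% with 10, 6.87% with 11, 6.23% with 12 and 5.28% with 13. In WT it made up 1.06%, 1.57%, 3.03%, 3.83%, 2.27% and 4.45% at the same lengths. From 14 residues the order turned, with 6.82% in KO and 10.4% in WT.

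The light chains of the short IGHV1-81 cells were looked at after these values were seen and are given without a test. IGKV4-70 was in 33 KO cells of 14 clones and 1 WT cell, IGKV1-135 in 29 of 25 clones and no WT cell, IGKV8-28 in 17 of 15 clones and 1 WT cell, IGKV4-57 in 12 of 8 clones and IGKV4-69 in 7 of 2 clones, with no WT cell for either. The same light chains occurred in IGHV1-81 cells with longer CDR3s, of which there were 1080 in KO and 1422 in WT. There IGKV1-135 was in 115 KO and 447 WT cells, IGKV8-28 in 37 and 7, IGKV4-57 in 23 and 15, IGKV4-70 in 8 and 1 and IGKV4-69 in 5 and 1. The residue after the first 3 was glutamate in 27 of the 89 KO clones (30.3%), in 1 of the 14 WT clones, and in 4.76% of KO and 3.33% of WT short clones of other IGHV genes. Among IGHV1-81 clones with longer CDR3s it was glutamate in 12.8% in KO and 5.98% in WT, and in 9 of the 11 such KO clones with IGKV4-57. The most frequent CDR3s of these KO cells are shown with the same marking, to let their junctions be compared with those of the shared clonotypes.
CARSSSGYW, IGHV1-81 with IGKV4-70: tgtgcaagaTCGAGTAGCGGctactgg
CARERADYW, IGHV1-81 with IGKV4-70: tgtgcaagaGAGAGGGCCgactactgg
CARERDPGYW, IGHV1-81 with IGKV4-69: tgtgcaagaGAGAGGGACCCAGGctactgg
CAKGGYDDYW, IGHV1-81 with IGKV4-70: tgtgcaaAGGGGGGATACGACgactactgg

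These 4 were in 8, 7, 6 and 4 cells and had more bases between the V and J ends than the shared clonotypes shown above. None of them was among the 36 short clonotypes found in both genotypes.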

How the data were processed

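The deposited files are tables of receptor contigs, 1 row per contig, from 8 libraries; the submitters' processing notes name Cell Ranger (version not given in the sources used here), R 4.3.1 and the build mm10. Reads and UMIs are deposited as counts per contig, and gene names, CDR3s and framework sequences are the authors' calls. Every deposited contig was marked as a cell, high-confidence, full-length and productive. Cells with 1 heavy and 1 light contig were kept, and no column of another sample was used. Contig totals were 11666 to 14732 per library.

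Computed here, with R 4.3.3 (edgeR 4.0.16, DESeq2 1.42.0) and Python 3.11.15 (SciPy 1.17.1, NumPy 2.4.6, matplotlib 3.10.9, pandas 2.3.3): clones (within a genotype, identity of at least 0.85), mutation against the commonest framework sequence of genes with at least 20 clones (77 of 97 IGHV genes), and cells per V gene. Library values were compared by exact two-sided permutation (70 assignments) or sign-flip (256) tests with Benjamini-Hochberg adjustment over 25, 20 and 20 values. Gene counts were tested with edgeR's quasi-likelihood fit on cells per gene, with the number of cells as library size, filterByExpr and a threshold of 0.05; each SE is the fold change over the root of F. The scripts were tested on simulated data. Replicate numbers did not pair the libraries: same-numbered deviations correlated at -0.36, -0.13, 0.19 and -0.37. Genes named are the most used by short cells, those called between genotypes by smallest p, those called between short and other cells by largest fold, and the largest clones and shared clonotypes. All 205 gene names matched RefSeq. The members and lists were chosen with earlier results of these data known. Alternatives were other length limits, clone and clonotype rules, UMI minimums, light-chain rules, germline minimums, scalings, filters, DESeq2 and each library left out; 5 were added after seeing the data.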

Additional observations from a re-analysis of the deposited data

Results flagged for a closer look

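IGHG3 was found in 0.245% of the short cells of KO library 2 and in none of the other KO libraries, which is a single cell. Chance marks about 1 in 20 groups in this way, and 50 groups were looked at.

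For 16 of the genes named above, the fold between short and other cells differed between KO and WT in the edgeR test of that difference. Over all genes tested it differed for 21 of 63 IGHV genes (33.3%) and 17 of 68 light V genes (25%). Some named genes had been picked because they were called between genotypes, so the 16 are a description. The values are KO minus WT on the log2 scale. Among IGHV genes it was -4.76 for IGHV8-8, 3.36 for IGHV1-81, -2.81 for IGHV5-9, -1.75 for IGHV1-76, -1.003 for IGHV1-53, 1.68 for IGHV2-2, 0.77 for IGHV1-9, -1.36 for IGHV14-3, -0.73 for IGHV9-3 and 0.94 for IGHV6-3. Among light V genes it was -3.72 for IGKV14-100, 3.91 for IGKV12-46, 1.49 for IGKV1-135, -1.59 for IGKV9-124, 1.93 for IGKV10-96 and 2.63 for IGKV4-70. With each clone counted once, the test passed for 11 of all 53 IGHV and 5 of all 57 light V genes tested. Of the 16, 7 passed and 9 did not. Those that passed were IGHV1-81 (2.70), IGHV14-3 (-2.36), IGHV5-9 (-1.93), IGHV1-76 (-1.09), IGHV1-53 (-0.94), IGKV12-46 (2.57) and IGKV1-135 (1.04). Those that did not were IGHV8-8 (-0.46), IGHV2-2 (0.80), IGHV1-9 (0.21), IGHV6-3 (0.30), IGHV9-3 (-0.64), IGKV14-100 (-1.48), IGKV9-124 (-0.18), IGKV10-96 (1.04) and IGKV4-70 (1.59), with edgeR adjusted p between 0.0933 and 0.768.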

How the results depend on the processing

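Differences below are KO minus WT among short cells, or short minus other cells, in points of percent unless a unit is given. A single value counts as past the threshold when its exact p is under 0.05 before adjustment, a limit chosen after the values were seen. Of the alternatives, the limit of CDR3s that end in tryptophan, the band of 20 to 40 heavy UMIs, the omission of the largest short clone of each genotype or of shared barcodes, and clones formed within each library were added after seeing the data, as was the test of light V genes whose short fold differed between genotypes. The cause of a change was not tested unless the alternative itself holds fewer cells or genes. The 14 genotype values that did not overlap between the libraries gave 213 values under the alternatives, of which 174 had an exact p under 0.05 and 2 had the other sign, and their adjusted p lay between 0.0476 and 0.652.

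Between genotypes, a limit of 9 residues gave a short share of -0.649, a clonotype share in the other genotype of 4.996 and an IGHJ2 share of -10.46, all past the threshold, IGHJ4 at 7.67, not past it, and turned IGHJ3 (4.09) and tyrosine (-0.248). A limit of 11 residues put IGHJ3 (-10.76) and tyrosine (0.792) past the threshold and turned the short share (0.746), IGHJ1 (0.101), IGHJ2 (5.78, past the threshold), the mean light CDR3 length (-0.00292 residues) and glycine (-0.565). Counting each clone once put IGHJ1 (-2.34), IGHJ3 (-5.90) and hydropathy (-0.198 units) past the threshold, took expanded clones (-3.15) and IGHJ4 (2.76) out, and turned the short share (0.0485), the clonotype share (-1.10), IGHJ2 (5.48, past the threshold) and glycine (-0.184). With CDR3s that end in tryptophan the switched share was -4.36, past the threshold, while the short share (0.132), the clonotype share (-0.285) and IGHJ2 (0.104) turned. At least 5 heavy UMIs put the switched share (-4.01) and tyrosine (0.574) past the threshold and took IGHJ4 (5.35) and glycine (0.851) out. With any number of light chains, IGHJ2 (-4.02) and tyrosine (0.652) passed and IGHJ3 (0.261) turned. At 20 to 40 UMIs the IGHG1 share of switched cells no longer passed (17.4), and with clones of identical CDR3 expanded clones did not (-4.72). The clonotype share turned when clonotypes were matched by bases (-1.79, past the threshold) or with the light chain (-2.17).

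Between short and other cells, a limit of 9 residues put the IGHG1 share of switched cells past the threshold (8.90), took the mutation frequency out (0.0418), and turned the switched share (-1.19), expanded clones (2.49), median heavy UMIs (0.8125 UMIs) and light CDR3 length (0.0124 residues). A limit of 11 residues took the mutation frequency out (0.0110) and turned the switched share (-0.0928), the unmutated share (0.888) and expanded clones (1.37). Counting each clone once took expanded clones out (-1.03) and turned the unmutated share (0.00691). At 20 to 40 UMIs the mutation frequency no longer passed (0.0639) and the switched share turned (-0.665). Expanded clones no longer passed with any number of light chains (-1.81), where median UMIs turned (0.125 UMIs), or with at least 5 UMIs (-1.39). Without the largest clones the unmutated share passed (-4.66).

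Of the 11 IGHV genes called between genotypes, the count became 20 without a filter on low counts, 7 at 9 residues, 22 at 11 and 2 with each clone counted once. For light V genes it was 24, 5 and 2, with no filter, at 9 residues and by clones, against 11. The genes whose short fold differed between genotypes numbered 11 IGHV and 5 light by clones, against 21 and 17. The named genes that turned between short and other cells at 9 residues were IGHV1-76 (-1.29 on the log2 scale) and IGHV1-85 (-0.44).

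With 1 library left out, the short share was -0.359 to 0.120 between genotypes and turned without WT 1 or WT 2. The clonotype share was -5.31 to 1.67 and turned without WT 2 (exact permutation p = 0.0286) or WT 4. The switched share was -4.84 to -3.68 and passed without WT 1. IGHJ4 was 4.57 to 6.52 and no longer passed when any 1 WT library was left out. Tyrosine was 0.199 to 0.608 and passed without WT 3, and glycine was 0.773 to 1.03 and did not pass without KO 1, WT 1, WT 2 or WT 3. The unmutated share of short minus other cells was -3.45 to -1.52 and passed without KO 3. The light V genes whose fold differed numbered 11 to 16, with 11 lacking KO 1 or WT 4. IGHM was 3.97 to 5.26 and did not pass without KO 2, 3 or 4 or WT 2, 3 or 4, IGHG2B was -2.10 to -1.40 and no longer passed when any 1 KO library was left out, and mutations per mutated cell were -0.825 to -0.596 and did not pass without WT 3 or WT 4. In edgeR, IGHV1-55 was lost without KO 4 or WT 3, IGHV6-3 without KO 2 or KO 3, and IGKV1-135 without KO 3, WT 1, WT 2 or WT 4.

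A replicate block, although the numbers did not pair the libraries, gave 11 IGHV and 10 light V genes between genotypes, and IGKV1-135 was the call lost (0.54, edgeR adjusted p = 0.0506). With 303 to 412 short cells per library, depth limited rare V genes and the constant genes of switched cells, and intervals cover counting error only.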
